A study of Homo sapiens with 4 samples.

Results

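The comparison of light polysomes with free mRNA covers 5382 of the 19948 protein-coding genes in the count table. A gene was included when it had at least 30 counts summed over the 4 libraries of the series and at least 20 counts in the light polysome and free libraries together. HEK293T cells, a kidney-derived human line in wide use, received cycloheximide at 100 ug/mL for 10 min, and their lysate was spun through sucrose from 10% to 50%. Every pool came from cells handled this way, no other agent or genotype is named in the labels, and dishes of the line were combined before the gradient. Capped, polyadenylated RNA of the free, monosome, light polysome and heavy polysome pools was read directly as RNA on nanopores, with 1 library for each pool.

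A ribosome that translates an mRNA adds mass to it, and cycloheximide holds ribosomes where they are. In the gradient, mRNAs without a ribosome therefore stay near the top with other light particles, mRNAs with a few ribosomes sediment into the light polysomes, and mRNAs with many go further. mRNAs with a TOP motif, a run of pyrimidines that starts with a C at the cap, code for ribosomal proteins and several translation factors, and they move between free and ribosome-bound pools when the kinase mTOR and the cap-binding protein LARP1 change activity. Ferritin mRNAs carry a hairpin in their 5′ leader, the iron-responsive element, to which iron regulatory proteins bind when iron is scarce.

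The first bases of a few mRNAs are printed because TOP genes lay at both ends of the comparison. They run from the annotated RefSeq start (GRCh38.p14), 5′ to 3′, 25 bases each, and capitals mark the unbroken run of C and T where the first base is a C. The first set starts with such a run and ends with RPL3, whose run has 4 bases.
RPLP1 (chr15:69452818-69452842, plus strand): CCCCTTTCCTCagctgccgccaagg
TPT1 (chr13:45341159-45341183, minus strand): CTTTTCCgcccgctcccccctcccc
RPL13A (chr19:49487608-49487632, plus strand): CTTTTCCaagcggctgccgaagatg
RPL41 (chr12:56116633-56116657, plus strand): CTCTCggccttagcgccattttttt
EEF1A1 (chr6:73521008-73521032, minus strand): CTTTTTCgcaacgggtttgccgcca
EEF2 (chr19:3985439-3985463, minus strand): CTCTTCCgccgtcgtcgccgccatc
EIF4B (chr12:53006456-53006480, plus strand): CTTTTgcgttctctttccctctccc
RPL3 (chr22:39319599-39319623, minus strand): CTCTaccggcgggatttgatggcgt

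A second set shows mRNAs without the run, from the free end (FTL, YBX1 and GAPDH) and from the light polysome end (IRAK1, SLC35A4 and LRP3).
FTL (chr19:48965309-48965333, plus strand): gcagttcggcggtcccgcgggtctg
YBX1 (chr1:42682418-42682442, plus strand): attctcgctagttcgatcggtagcg
GAPDH (chr12:6535264-6535288, plus strand): gtccggatgctgcgcctgcggtaga
IRAK1 (chrX:154019878-154019902, minus strand): gagtcagtgtccgcggacccggccg
SLC35A4 (chr5:140564828-140564852, plus strand): aagttcggcggggaagatggcggat
LRP3 (chr19:33194330-33194354, plus strand): gacagacccacggacgctctaccgg

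A start with a C and at least 4 further pyrimidines was found in 45 of the 61 tested ribosomal protein genes with a RefSeq start (73.8%) and in 10 of 11 other TOP genes. It was found in 419 of the 4371 tested genes with a RefSeq start (9.59%) and in 5.14% of all 27305 genes in the RefSeq table. Outside the TOP genes, the share was 11.6% among genes toward the free library and 9.25% among genes toward the light polysome library. Among genes toward neither it was 7.92%, all by the rule given below. A gene with several annotated starts was counted when any of them began this way.

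The libraries held 355509 counts (free), 1329334 (monosome), 1499401 (light polysome) and 1564531 (heavy polysome). The free library was the shallowest, and the 10 most counted genes made up 43.6% of it and 9.60% of the light polysome library. The median free count of a tested gene was 2 and the median light polysome count 64, and 1144 genes had none in the free library. The labels name no replicates and no batches, so a pool and its library cannot be told apart, the size of differences among repeat samples is unknown and p-values are absent. All values are shares of a library, so fewer copies of an mRNA and more of the others cannot be told apart.

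For each gene the count plus 0.5 was divided by the library total, and the log2 ratio of light polysome over free was taken relative to the median gene, whose share was 5.79-fold higher in the light polysome library (log2 2.53). Intervals are exact 95% counting intervals (Clopper-Pearson). A gene was counted as toward a library when it lay at least 2-fold from the median gene and its interval excluded the median gene. Relative to this reference, a gene toward free can still hold a larger share of the light polysome library than of the free library. By this rule 400 genes (7.43%) lay toward the light polysome library and 742 (13.8%) toward the free library. With edgeR's TMM scaling, which puts the reference at log2 2.29 in place of 2.53, the split was 589 against 581 (10.9% and 10.8%), and it was 505 against 637 (9.38% and 11.8%) after centring on DESeq2's size factors (2.38). A pseudocount of 1 gave 10.1% and 11.2%, the interval without the fold minimum 8.42% and 16.1%, and leaving out ribosomal protein genes 7.22% and 13.1%. With no minimum beyond 1 count in the pair the shares were 11.9% and 3.34%, with genes lacking a count set at 3 counts 14.1% and 7.86%, and with the median gene retaken among genes of at least 100 counts 17.1% and 22.9%. Of all tested genes, 50% lay between -0.91 and 1.07.

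Depth set what could be called at the light polysome end. A gene without a count in the free library needed at least 92 counts in the light polysome library, and 2133 genes had that many. At the free end, 4 free counts of 20 were enough. Of the 400 genes toward the light polysome library, 109 had no free count. Among the 2092 genes that had 100 or more counts in the pair, 383 (18.3%) lay toward the light polysome library and 447 (21.4%) toward the free library. At the lower edge, the 559 genes with 20 to 24 counts in the pair had a median of -0.70, and the 676 genes with 15 to 19 counts, which were left out, had 0.34. In these groups 254 and 339 genes had no free count. Of the genes described below, ACTB (-0.68), TUBB (-0.85), PCNA (-0.82), LDHA (-0.69), MAPK3 (-0.83), IFRD1 (0.91) and CSNK1E (0.86) lost their call with genes lacking a count set at 3. With no minimum, the first 5 of these, RPL13A (-0.82), RPL41 (-0.87) and HSPD1 (-1.09) lost it, and with the median gene retaken at 100 counts ODC1 (0.94) and PGAM1 did. Most calls toward free in the complex I, proteasome, and Sm and LSm lists also ended with no minimum. The 742 genes toward free became 397 with no minimum and 423 with genes lacking a count set at 3. Counts of calls in the lists below hold for the main setting.

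**Figure D1:**
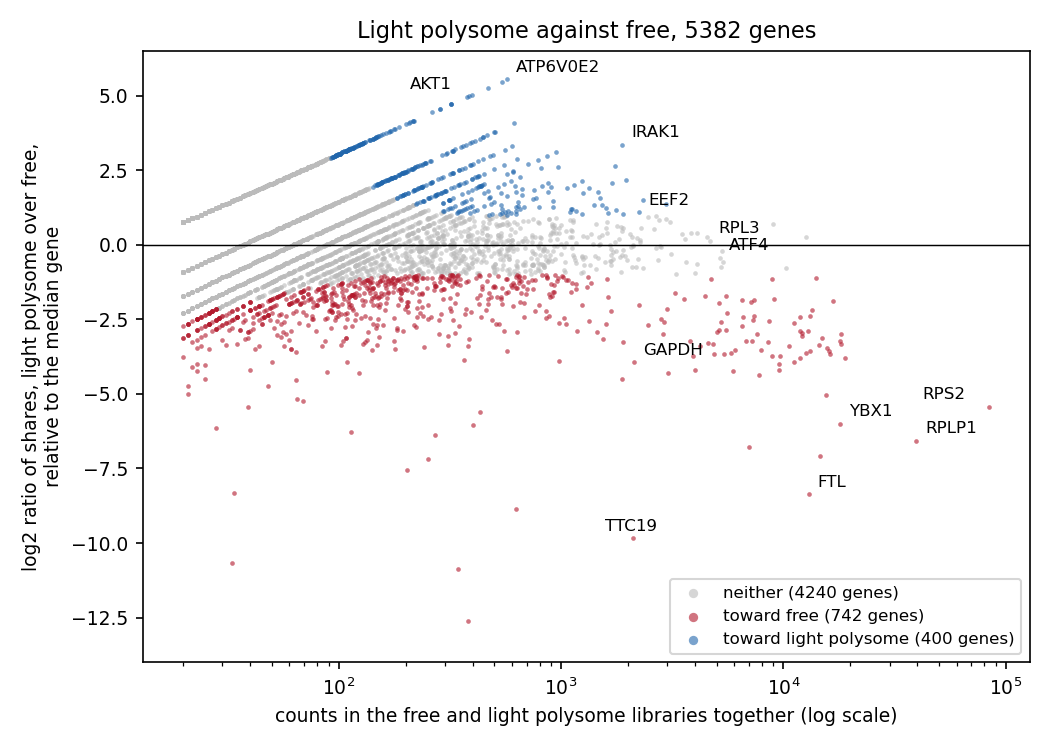
Each point is a gene, with its counts in the free and light polysome libraries together on a log axis and its log2 ratio of light polysome over free relative to the median gene. The rising lines of points at the left are genes with 0, 1, 2 and more counts in the free library; the 400 blue genes lie toward the light polysome library and the 742 red genes toward the free library.

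Ribosomal protein mRNAs lay toward the free library almost as a group. Of the 81 genes in the table, 76 had enough counts, and the other 5, among them RPL17, RPL36A and RPS10, were below the minimum. Of the 76, 70 lay toward the free library and 0 toward the light polysome library, against 13.8% and 7.43% of all genes, and their median was -2.91, against 0 over all genes tested. The 30 small-subunit genes had a median of -2.95 with 28 toward free, and the 46 large-subunit genes had -2.66 with 42 toward free.

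RPS2, a small-subunit protein (chromosome 16, 1962052 to 1964860), made up 15.1% of free counts, 6.79% of monosome, 2.04% of light polysome and 0.506% of heavy polysome counts. It lay at -5.43 (-5.45 to -5.41). Its share was lower in each pool than in the pool before it along the gradient. The stalk proteins of the large subunit, which recruit elongation factors, did not lie together. RPLP1 lay at -6.57 (-6.60 to -6.53), RPLP2 at -3.53 (-3.59 to -3.46) and RPLP0 at -3.23 (-3.28 to -3.18), and their intervals did not overlap between RPLP1 and either of the others. RPLP1 made up 8.81% of free and 0.538% of light polysome counts.

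The members that did not pass the rule were RPS15A (-1.39), RPL22 (-1.11), RPL26 (-0.95), RPS3A (-0.57), RPL21 (-0.53) and RPL3 (0.13). RPS15A, RPL22 and RPL26 had 6, 10 and 2 free counts. RPL3, a core protein of the large subunit, had 167 free and 4482 light polysome counts, with an interval of -0.09 to 0.37 that included the median gene. Its CPM, the count scaled to a library total of 1000000, was 470 in the free, 2477 in the monosome, 2989 in the light polysome and 3900 in the heavy polysome library, so it was higher in each successive pool, the reverse of RPS2. RPS3A, a small-subunit protein, had 858, 6587, 3357 and 3705 CPM and was highest in the monosome library.

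RPL41, the smallest ribosomal protein, has a coding sequence of 78 nucleotides with the stop codon. It had 2357 CPM in the free, 14307 in the monosome, 3778 in the light polysome and 293 in the heavy polysome library, and lay at -1.85 (-1.96 to -1.75). RPL13A, with a start run like that of TPT1, lay at -1.81 (-1.95 to -1.66), much nearer the median gene. Ribosomal protein genes are near copies of many retrocopies, and the rule for reads that align to several places is unknown here, so single values in this family are uncertain.

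The other TOP genes spread over both ends. Of 18, 17 were tested: 9 lay toward the free library (13.8% of all tested genes did), 3 toward the light polysome library (7.43% did) and 5 toward neither, with a median of -1.69, or -1.06 with genes lacking a count placed at 3. TPT1, a translationally controlled tumor protein, was the most free-bound at -6.76 (-6.85 to -6.68), with 16061 CPM in the free, 8145 in the monosome, 855 in the light polysome and 1420 in the heavy polysome library. The scaffold protein RACK1, which sits on the small subunit, lay at -3.73 (-3.82 to -3.63) and BTF3, of the nascent chain complex, at -3.90 (-4.09 to -3.71). NPM1, a nucleolar chaperone, lay at -2.01 (-2.30 to -1.70) with 315, 524, 454 and 6210 CPM from free to heavy polysome. NPM1 and BTF3 were thus toward free in this pair while their highest share was in the heavy polysomes.

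EEF2, which moves the ribosome along the mRNA, lay on the other side at 1.09 (0.67 to 1.58), with 118 CPM in the free, 973 in the monosome, 1473 in the light polysome and 1154 in the heavy polysome library. EIF4B, a cofactor of the initiation helicase, lay at 2.11 (0.77 to 4.62) on 3 free counts. PABPC4, a poly(A)-binding protein, had no free count, and its interval relative to the median gene began at 1.03. Against a floor of 3 counts its light polysome share was 14.7-fold higher. The median gene, taken without this floor, was 5.79-fold higher. EEF1A1, which delivers aminoacyl-tRNA, was near the median gene at -0.79 (-0.90 to -0.67), and PABPC1, the main poly(A)-binding protein, at -0.68 (-1.33 to 0.14). The starts printed above do not separate these ends: TPT1 and EEF2 both begin with 7 pyrimidines, and the first lay at -6.76 and the second at 1.09.

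The ferritin mRNAs FTL and FTH1 lay further toward free than any ribosomal protein gene tested. FTL, the light chain (chromosome 19, 48965301 to 48966878), made up 3.40% of free, 0.211% of monosome, 0.0598% of light polysome and 0.0290% of heavy polysome counts, and lay at -8.36 (-8.46 to -8.26). FTH1, the heavy chain (chromosome 11, 61959718 to 61967660), took 3.49%, 0.477%, 0.149% and 0.0793% and lay at -7.08 (-7.15 to -7.02). Their annotated 5′ leaders (GENCODE 29, GRCh38) share a longest stretch of 13 bases, in capitals within the 30 bases shown, which ends in the CAGTG of the iron-responsive element's loop.
FTL (chr19:48965331-48965360, plus strand): ctgtctctTGCTTCAACAGTGtttggacgg
FTH1 (chr11:61967577-61967606, minus strand): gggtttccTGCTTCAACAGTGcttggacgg

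No other leader among the 5113 tested genes with an annotated leader held the 13 bases on its mRNA strand, while the 5 letters CAGTG alone were found in 24.7% of them. Leaders differ in length, and a match is letters only. Of the 10 genes of the iron list 4 were tested. Among them ALAS1, the first enzyme of heme synthesis, had no free count and 54 light polysome counts, too few to be called.

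YBX1, an abundant mRNA-binding protein (chromosome 1, 42682427 to 42702349), lay at -6.00 (-6.05 to -5.96). It made up 3.66% of free, 0.563% of monosome, 0.331% of light polysome and 0.323% of heavy polysome counts, so that most of the fall lay between the free and monosome libraries. Of the 16 tested mRNP proteins, 5 lay toward free and 1 toward the light polysome library, against 13.8% and 7.43% of all tested genes. Within that list LARP1, the TOP-binding protein, lay at 0.84 on 1 free count, with an interval from -1.12 to 6.74.

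**Figure D2:**
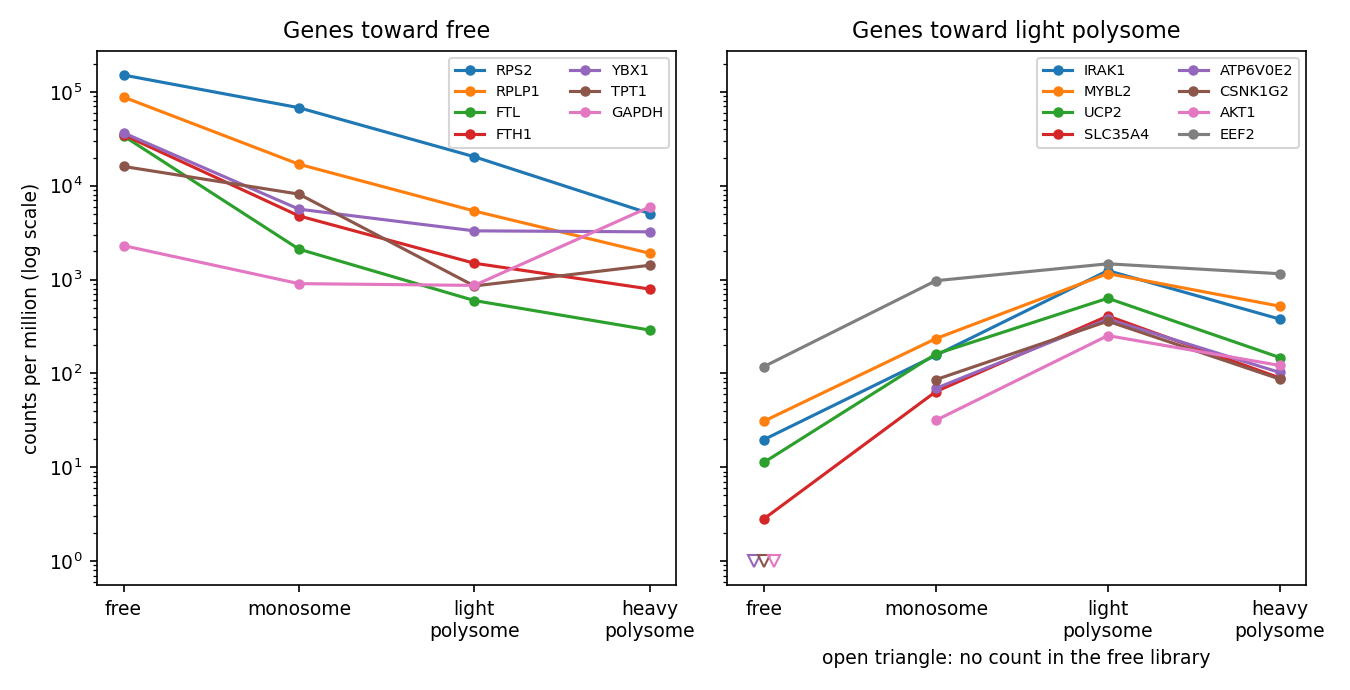
CPM in each of the 4 libraries, on a log axis, for 7 genes toward the free library and 8 toward the light polysome library; an open triangle marks a gene with no count in the free library. Levels fell from the free to the light polysome library in the left panel, GAPDH being highest in the heavy polysome library, and all 8 genes on the right were highest in the light polysome library.

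The free end also held gene symbols whose reads may belong to other transcripts. MTRNR2L8 and MTRNR2L12, nuclear copies of part of the mitochondrial 16S rRNA gene, were at the extreme, with 381 and 341 free counts against 1 and 4 in the light polysome library. TTC19, a factor of respiratory complex III, had 2054 free counts and 54 light polysome counts and lay at -9.85 (-10.28 to -9.47). An annotated exon of TTC19 overlaps, on the same strand, the retrocopy RPLP1P11 of RPLP1. In all, 11 tested genes had such an overlap with a pseudogene of a ribosomal protein. Of these, 9 lay toward the free library and 0 toward the light polysome library, against 13.8% and 7.43% of all tested genes. Among the 9 were VPS53 (-7.18), TIPIN (-5.60), NBEAL1 (-5.05) and COMMD1 (-3.64), and also RPS29, itself a ribosomal protein gene counted above. NBEAL1 was among the 10 most counted genes of the free library. Others of the 15 genes furthest toward free, by the upper end of the interval, had no such overlap. These were NHSL2 (-8.85), RIMS2 (-7.54), ANKRD42 (-6.38), RSF1 (-6.28) and AC073610.2 (-6.03). The part of the retrocopies in these counts was not tested.

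The 15 genes furthest toward the light polysome library were ranked by the lower end of the interval among those with at least 100 counts in the pair. IRAK1, a kinase of interleukin-1 and Toll-like receptor signalling (chromosome X, 154010500 to 154019980), had 19.7 CPM in the free, 156 in the monosome, 1246 in the light polysome and 379 in the heavy polysome library. It lay at 3.35 (2.40 to 4.77) and rests on 7 free counts. MYBL2, a cell cycle transcription factor, had 30.9, 235, 1158 and 520 CPM and lay at 2.63 (1.85 to 3.70). UCP2, a carrier of the inner mitochondrial membrane, had 11.3, 161, 632 and 148 CPM and lay at 3.11 (1.92 to 5.16). All 3 were highest in the light polysome library and lower on either side of it.

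SLC35A4, a nucleotide sugar transporter family member, had 1 free count and lay at 4.07 (2.17 to 9.96), with 63.9 CPM in the monosome, 409 in the light polysome and 89.5 in the heavy polysome library. LRP3, a lipoprotein receptor relative, lay at 3.78 (1.87 to 9.67) and PREB, which starts vesicle formation at the endoplasmic reticulum, at 3.76 (1.86 to 9.65), each on 1 free count. Another 9 of the 15 leading genes had no free count. Against the floor of 3 counts the light polysome share was 45.0-fold higher for ATP6V0E2, a proton pump subunit, and 42.7-fold for the casein kinase CSNK1G2. It was 36.9-fold higher for the ubiquitin ligase RNF10 and 31.3-fold for the deubiquitinase BAP1. The kinases AKT2 and AKT1 followed at 30.4-fold and 30.0-fold, the cell death regulator CDIP1 at 25.4-fold, and the ubiquitin ligase RNF26 and the sorting nexin SNX17 at 25.3-fold each. The median gene, taken without this floor, was 5.79-fold higher, so the 2 kinds of fold are not on the same scale. Relative to the median gene, the lower ends of these 9 intervals ran from 2.65 for ATP6V0E2 to 1.82 for SNX17.

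Kinase genes were read against the 7.43% of all tested genes toward the light polysome library and the 13.8% toward free. Of 14 tested genes of AKT, mTOR and S6 kinase signalling, 3 lay toward the light polysome library (AKT1, AKT2 and TBC1D7, a partner of the TSC complex) and 0 toward free, with a median of 0.60, or 1.04 with genes without a count at 3. MTOR itself, with 0 free and 10 light polysome counts, had too few counts. MLST8, a subunit of the mTOR complexes, lay on the other side of the median gene at -0.83 (-1.24 to -0.37). Of 5 tested casein kinases, CSNK1G2 and CSNK1E lay toward the light polysome library, and of 19 mitogen-activated kinases and upstream kinases 3 did, among them MAP2K2 at 1.13 and MAPK12 at 2.28, with 3 toward free, among them MAPK3 at -1.45 and MAP3K13 at -3.24.

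The list of stress mRNAs with upstream open reading frames, short frames ahead of the main one that hold back its translation, had 10 tested members. Its members were matched by gene symbol, and such frames were not looked for in their sequences. XBP1, a transcription factor of the unfolded protein response, lay toward the light polysome library at 2.39 (1.05 to 4.89). IFRD1 did too, with no free count and an interval that began at 0.18. Against a floor of 3 counts its share was 8.22-fold higher. The median gene, taken without this floor, was 5.79-fold higher. None of the 10 lay toward free, against 13.8% of all tested genes. ATF4, the main transcription factor of the integrated stress response, had 765 CPM in the free, 2817 in the monosome, 3265 in the light polysome and 428 in the heavy polysome library, and lay near the median gene at -0.44 (-0.62 to -0.26). The list's median was 1.45, but 4 of its members had no free count, and it was 0.19 with these at 3 counts. It was -0.53 with at least 100 counts in the pair and -0.28 from summed counts, so its side of the median gene was not stable.

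Most initiation factors tested had no call, as did 4240 of all 5382 tested genes. In the eIF4 family, which recognises the cap and unwinds the leader, 4 of 11 lay toward the light polysome library and 0 toward free, against 7.43% and 13.8% of all tested genes, with a median of 0.12. These were EIF4H at 3.35 (1.45 to 9.24), EIF4G1, the scaffold, at 2.24 (0.33 to 8.14), EIF4B, and EIF4G2 at 1.91 (1.13 to 2.98). EIF4E, the cap-binding subunit, lay at -0.64 (-1.23 to 0.08). Of 12 tested subunits of eIF3, which holds the small subunit, 5 lay toward free and 0 toward the light polysome library, with EIF3H at -3.48 and EIF3E at -2.51, and 7 had no call. Of 7 tested eIF2 and eIF2B subunits none had a call, and of 7 start-codon selection factors 1 lay toward the light polysome library. Of the 16 tested aminoacyl-tRNA synthetases and their partners, 0 lay toward the light polysome library and 2 toward free. Among polyamine genes ODC1, the rate-limiting enzyme of polyamine synthesis, lay at 1.03 (0.58 to 1.56), just past the 2-fold line, and its inhibitor OAZ2, an antizyme, at 1.63 (0.67 to 3.05). The other 7 of 9 had no call, near the share without a call over all tested genes.

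For carriers and transcription factors the shares to compare with were again 7.43% of all tested genes toward the light polysome library and 13.8% toward free. Of 88 tested solute carriers 57 lay above the median gene, 9 toward the light polysome and 6 toward the free library. Their median was 0.59, or 0.30 with genes without a count at 3 and -0.20 when members' counts were summed. SLC25A6, a carrier of ADP and ATP across the inner mitochondrial membrane, lay at -2.62 (-2.84 to -2.38). Of 32 tested homeobox and SOX genes 2 lay toward the light polysome library, HOXD13 at 3.28 (1.37 to 9.17) and SOX12 at 2.26 (0.92 to 4.76), and 1 toward free. Their median of 0.85, like that of 0.75 for the 94 tested ZNF genes, rested on genes without a free count, 11 and 42 of them, and became -0.0026 and -0.18 with these at 3 counts. Of the ZNF genes 3 lay toward the light polysome library and 4 toward free. Of 16 tested immediate-early and ID genes 0 and 4 did, with a median of -0.49.

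**Figure D3:**
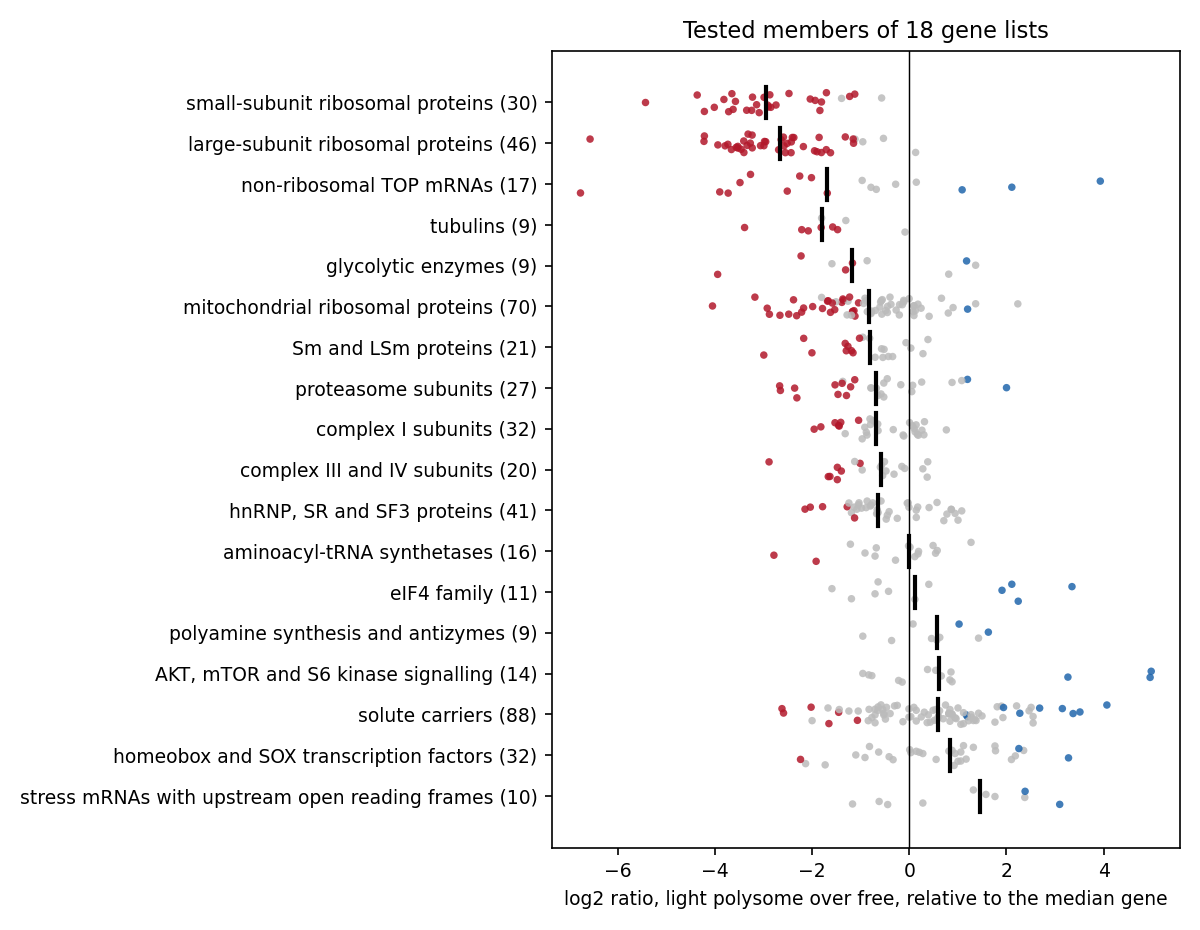
Each point is a tested member of a gene list (number tested in brackets), placed by its log2 ratio of light polysome over free relative to the median gene; blue points lie toward the light polysome library, red toward free, grey toward neither, and the black bar is the list's median. Ribosomal proteins lie left of the others, and the other TOP mRNAs reach both ends.

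Of 70 tested mitochondrial ribosomal proteins, 26 lay toward free and 1 toward the light polysome library, against 13.8% and 7.43% of all tested genes, with a median of -0.83 and MRPL42 at -3.18 (-3.50 to -2.83). Complex I had 7 of 32 toward free and 0 toward the light polysome library (median -0.68), complexes III and IV 7 of 20 and 0 (median -0.58, but 0.04 with genes without a count at 3), and ATP synthase 6 of 18 and 0 (median -0.60). With no minimum all 4 medians lay above the median gene, at 0.10, 0.34, 0.42 and 0.36 in this order. None of the 7 complex I calls toward free held with no minimum. With genes without a count at 3, only that of NDUFS3 held. Of import and CHCHD proteins, TIMM22, the pore for carrier proteins, lay at 3.15 (1.24 to 9.04) on 1 free count, and CHCHD3, which shapes the inner membrane, at -2.29 (-2.39 to -2.18), with 3 of 37 toward the light polysome and 7 toward the free library, the first near the share over all genes.

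Of 27 tested proteasome subunits 10 lay toward free, against 13.8% of all tested genes, with PSMA4 at -2.67 (-3.25 to -2.01), and 2 toward the light polysome library, against 7.43%: PSMC5, an ATPase, at 2.00 (0.66 to 4.51) and PSMB2, a subunit of the core, at 1.20 (0.59 to 1.97). Of 20 tested cytosolic and mitochondrial heat shock proteins and their partners 8 lay toward free, with the chaperonin HSPD1 at -2.08, and 1 toward the light polysome library, PTGES3, a partner of HSP90, at 1.22. Prefoldin, which hands new actin and tubulin to the chaperonin, had 4 of 8 toward free, and the chaperonin itself 1 of 8.

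Of 9 tested tubulins 6 lay toward free, against 13.8% of all tested genes, and none above the median gene, with TUBA1B at -2.21 (-2.40 to -2.02) and TUBB at -1.47 (-1.81 to -1.10). In CPM, TUBA1B had 751 in the free and 940 in the light polysome library, and TUBB 214 and 448. Tubulin copies are near-identical and may share reads. GAPDH of glycolysis lay at -3.94 (-4.07 to -3.81), with 2301 CPM in the free, 905 in the monosome, 867 in the light polysome and 5948 in the heavy polysome library, and LDHA at -1.31 (-1.82 to -0.71). PGAM1, in the same pathway, lay at 1.18 (0.08 to 2.95), and 4 of 9 tested glycolytic enzymes lay toward free. ACTB, cytoplasmic actin, lay at -1.30 (-1.56 to -1.02) with its highest share, like GAPDH, in the heavy polysome library. ACTB had 352 CPM in the free and 830 in the light polysome library.

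Of 21 tested Sm and LSm proteins, the rings of the splicing particles, 9 lay toward free and 0 toward the light polysome library, with SNRPB2 at -2.99 and SNRPD2 at -2.17. Over all tested genes 13.8% and 7.43% did. Among 41 hnRNP, SR and SF3 proteins the counts were 5 and 0, the first near the share over all genes, with HNRNPA2B1 at -2.14 (-2.69 to -1.51). In the cell cycle, CDK4, the kinase of early G1, lay toward the light polysome library at 1.77 (1.13 to 2.59) and the mitotic kinase CDK1 toward free at -2.70. Of the replication genes POLD2, a subunit of DNA polymerase delta, lay at 2.13 (1.35 to 3.20) and the sliding clamp PCNA at -1.44 (-2.22 to -0.44). The other 22 of 24 had no call, where 4240 of all 5382 tested genes had none. PCNA had 36.6 CPM in the free and 80.7 in the light polysome library. HMGN2, a nucleosome-binding protein among the 10 most counted genes of the light polysome library, had 1162 CPM in the free, 2983 in the monosome, 8133 in the light polysome and 1525 in the heavy polysome library and lay close to the median gene at 0.27 (0.13 to 0.42).

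The libraries that the rule did not compare placed the genes as follows. Of the 400 genes toward the light polysome library, 314 (78.5%) had their highest CPM there and 82 (20.5%) in the heavy polysome library, against 39.1% and 51.2% of all 5382. Of the 742 toward free, 89 had their highest CPM in the free library itself and 231 (31.1%) in the monosome library. A further 123 (16.6%) had it in the light polysome and 299 (40.3%) in the heavy polysome library. Over all 5382 genes, 89 (1.65%) were highest in the free library, all of them toward free, and 431 (8.01%) in the monosome library. The free and light polysome values enter both the rule and this count, so these shares are a description. The median CPM of the 400 genes was 5.63 in the free, 42.9 in the monosome, 174 in the light polysome and 102 in the heavy polysome library, and that of the 742 was 47.8, 75.2, 78.4 and 98.1.

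Genes at the ends differed in length and base composition. Annotated coding sequences (GENCODE 29) had a median of 1089 nucleotides for genes toward the light polysome library, 708 for genes toward free and 1032 over all tested genes. The GC content of the coding sequence had a median of 58.7%, 48.4% and 54.7%, and that of the 3′ untranslated region 52.3%, 38.8% and 45.7%. In 4 groups of near-equal size by coding GC, the median log2 ratio went from -0.74 in the lowest through -0.19 and 0.40 to 0.75 in the highest. The share toward free went from 26.1% through 14.7% and 9.15% to 5.39%, and the share toward the light polysome library from 2.47% to 10.9%. The median counts in the pair were 57, 73, 73.5 and 68 in these groups. The part of depth in these values was not tested.

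In 4 such groups by coding length the medians were -0.36, -0.04, 0.14 and 0.52, with median counts in the pair of 191, 76, 53 and 39. For the genes that had 100 or more counts in the pair, split at the same lengths into 900, 556, 389 and 230 genes, they were -0.37, 0.20, 0.59 and 1.01. Across genes, which share both libraries and are not independent replicates, Spearman's rho with the log2 ratio was 0.346 for coding GC (n = 5339) and 0.173 for coding length (0.0971 with a pseudocount of 1), and with at least 100 counts in the pair 0.362 and 0.346 (n = 2075). Without the ribosomal protein genes, which are short, the values were 0.346 and 0.152. The 5′ leader's length gave 0.0872. Within each group genes still lay on both sides of the median gene: in the most GC-rich group, 50% of genes lay between -0.36 and 1.51.

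**Figure D4:**
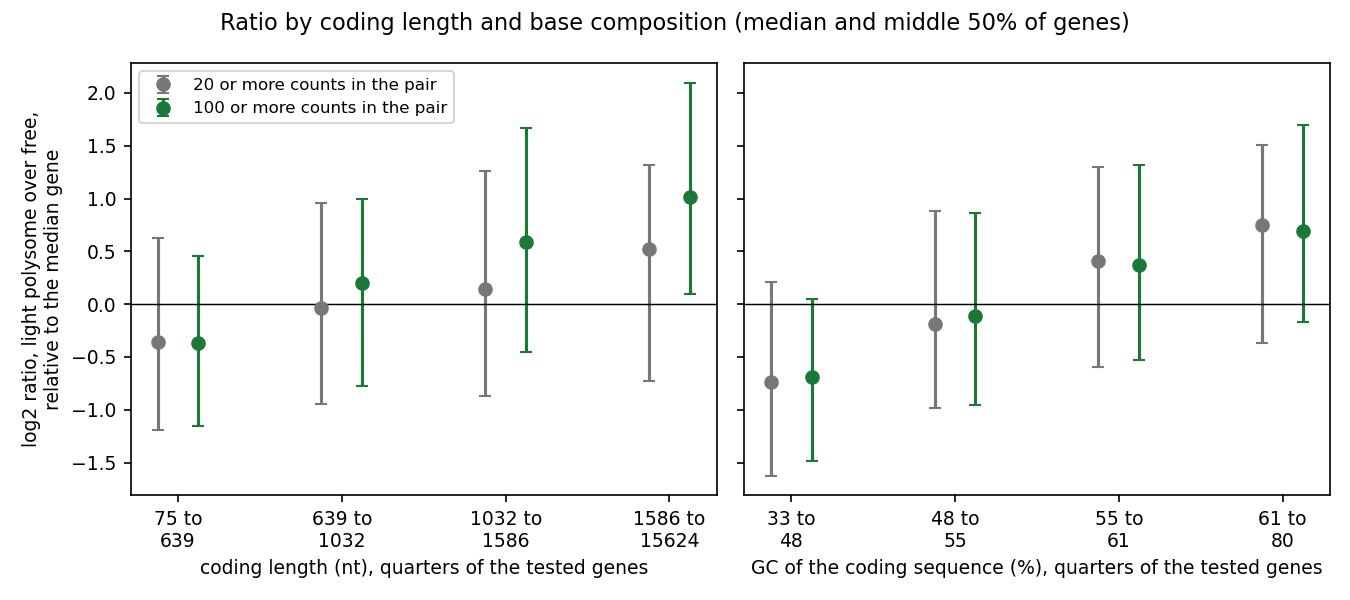
Median log2 ratio of light polysome over free relative to the median gene (points) and the range of the middle 50% of genes (bars), in 4 groups by coding length in nucleotides and by coding GC content in percent, cut at the quartiles of all tested genes, for genes with at least 20 or at least 100 counts in the pair. The medians were higher in each successive group for both features, and the bars overlap between groups.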

How the data were processed

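The authors deposited 1 table of unscaled read counts by gene symbol, with 1 column for each pool. The tools minimap2 2.15, Subread 1.6.2 with featureCounts, and the build hg38 are named in the submitters' processing notes. No source used here states the annotation release, the use of strand or the treatment of reads with several alignments. Each column was matched to a sample by its title, and no column was left unused.

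Log2 ratios, CPM and intervals were computed from these counts with Python 3.11.15, numpy 2.4.6, pandas 2.3.3 and scipy 1.17.1. Scaling alternatives used edgeR 4.0.16 and DESeq2 1.42.0 in R 4.3.3. With 1 library per pool no replicate test was possible. Positions, lengths and GC came from GENCODE 29 (GRCh38), to which 19670 of 19948 symbols matched, and 99.2% of tested genes had a coding length. Intervals and floors (3 counts) cover counting error alone. The members and the 57 gene lists were chosen with earlier results of these data known. The list medians come from members above the minimum counts.

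Genes named were the 15 with the highest lower bound and the 15 with the lowest upper bound of the interval, with at least 100 counts in the pair; each list's most counted, highest and lowest members, the last 2 with at least 50 counts; the 10 most counted genes in either library; and a fixed set. Other names were chosen after their values were seen. Alternatives were other minimum counts, a pseudocount of 1, TMM and DESeq2 centring, no fold minimum, genes without a count set at 3, and summed list counts. Values of some list members are not reported here.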

Additional observations from a re-analysis of the deposited data

How the results depend on the processing

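No paired analysis was possible because each pool has 1 library. With no minimum other than 1 count in the pair, 1415 genes lay toward the light polysome library and 397 toward free, and the ribosomal protein median was -1.92. With genes without a count set at 3 counts the values were 760, 423 and -2.28. Both settings bring in or raise genes at the edge of detection and move the median gene. With at least 100 counts in the pair 479 genes lay toward free, among fewer genes tested, and the ribosomal protein list median gave way to -3.57 when counts were summed. The other settings left the counts toward the light polysome library between 358 and 589 and those toward free between 581 and 867. Of the list medians whose interval excluded 0, these changed sign with no minimum: mitochondrial ribosomal proteins (0.10), Sm and LSm proteins (0.10), hnRNP, SR and SF3 proteins (0.33), ATP synthase (0.36), complexes III and IV (0.42), proteasome (0.21), endoplasmic reticulum chaperones (0.079), Sec61 and signal peptidase (0.61), peroxiredoxins and thioredoxins (0.55), cholesterol and fatty acid synthesis (0.24, and 0.36 with at least 100 counts) and ZNF genes (-0.45, and -2.32 from summed counts). With genes without a count at 3, complexes III and IV (0.042), Sec61 and signal peptidase (0.25), peroxiredoxins (0.21), ZNF genes (-0.18) and homeobox and SOX genes (-0.0026) changed sign, as solute carriers did from summed counts (-0.20). Restricting to at least 100 counts, coding length gave a rho of 0.346, and a pseudocount of 1 gave 0.0971. The cause of these changes was not tested. No called gene changed sign among those recomputed, which are the genes that the naming rule gives. A gene without a free count needed 92 light polysome counts to be called, which the depth of the free library sets.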
